A study of Mus musculus with 8 samples.

Results

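Imprinted genes are read mainly or only from the copy inherited from 1 parent, and 10 mouse genes of this kind are described here: Igf2r, Airn and Slc22a3 of one locus, Zdbf2 and Gpr1 of another, and the scattered Plagl1, Grb10, Impact, Sfmbt2 and Gab1. The measured values come from every probe set annotated to exactly 1 of these symbols. The genes were chosen by locus, with the differences between the groups of these arrays already known, so those differences are given as descriptions and no gene gets a test of its own. Of the 10 genes, 9 had such a probe set and Slc22a3 had none. Those 9 are among 18193 genes with such a probe set and among the 13125 of them bright enough to be tested.

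The arrays, 1 per clone, profiled induced pluripotent stem (iPS) cell clones, 4 derived with ascorbic acid (vitamin C) in the medium and 4 derived without it. All 8 came from mouse embryonic fibroblasts of the Col-OKSM line, in which doxycycline switches on Oct4, Sox2, Klf4 and cMyc. Doxycycline and LIF were in the medium of both groups, and both grew on irradiated feeder fibroblasts, with a preplating step to remove feeders before RNA was taken. The labels used here give no age or sex. The labels give the 4 clones of a group as biological replicates without saying whether they shared an embryo, so errors measure the spread between these clones. All 8 pluripotency markers read, among them Pou5f1, Nanog and Sox2, lay above the limit for dim probe sets in these arrays. Array medians lay between 134 and 156 signal units, and no array stood apart (correlation of log2 signals 0.970 to 0.977 between any 2 arrays).

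At the Igf2r locus the promoter of Airn lies inside Igf2r and is read from the opposite strand. In most mouse tissues the methylation laid down in the egg keeps that promoter silent on the maternal copy. On the paternal copy Airn is transcribed and silences Igf2r beside it, while in undifferentiated embryonic stem cells Airn is scarcely made and both Igf2r copies are read. Zdbf2, Plagl1 and Impact are read from the paternal copy, and Grb10 from the maternal copy in most tissues and from the paternal copy in neurons. Sfmbt2 and Gab1 belong to a smaller class, paternally read in extraembryonic tissue, whose imprint is a repressive histone mark from the egg rather than DNA methylation. The arrays read the RNA of both copies together, so which copy was in use was not measured.

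RefSeq start windows (build GRCm38.p6, 250 bases before to 50 after a start) are shown for Igf2r and Airn, which oppose each other at 1 locus, for Zdbf2, whose groups did not overlap, and for Grb10, which was low in 1 clone. Capitals mark TGCCGC or its reverse complement GCGGCA, the hexamer bound in methylated form by Zfp57, a factor that keeps imprints in place.
Igf2r (chr17:12769657-12769956, - strand): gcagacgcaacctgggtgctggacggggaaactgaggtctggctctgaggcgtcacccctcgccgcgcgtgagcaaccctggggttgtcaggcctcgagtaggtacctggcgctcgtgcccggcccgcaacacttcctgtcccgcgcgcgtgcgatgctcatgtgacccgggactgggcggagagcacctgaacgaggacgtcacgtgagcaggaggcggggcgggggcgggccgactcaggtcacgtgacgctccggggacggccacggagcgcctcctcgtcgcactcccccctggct
Airn (chr17:12741061-12741360, + strand): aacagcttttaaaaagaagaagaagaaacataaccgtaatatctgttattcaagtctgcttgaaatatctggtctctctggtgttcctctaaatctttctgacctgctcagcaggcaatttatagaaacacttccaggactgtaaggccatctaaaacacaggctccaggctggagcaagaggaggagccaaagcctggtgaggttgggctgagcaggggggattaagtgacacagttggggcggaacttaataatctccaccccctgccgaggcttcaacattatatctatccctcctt
Zdbf2, first start (chr1:63200108-63200407, + strand): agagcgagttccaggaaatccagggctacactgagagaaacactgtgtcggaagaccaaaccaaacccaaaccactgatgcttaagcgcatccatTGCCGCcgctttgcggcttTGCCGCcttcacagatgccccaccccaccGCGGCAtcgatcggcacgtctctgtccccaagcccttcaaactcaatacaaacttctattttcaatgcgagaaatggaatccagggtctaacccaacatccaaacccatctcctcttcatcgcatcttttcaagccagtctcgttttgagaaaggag
Zdbf2, second start (chr1:63273019-63273318, + strand): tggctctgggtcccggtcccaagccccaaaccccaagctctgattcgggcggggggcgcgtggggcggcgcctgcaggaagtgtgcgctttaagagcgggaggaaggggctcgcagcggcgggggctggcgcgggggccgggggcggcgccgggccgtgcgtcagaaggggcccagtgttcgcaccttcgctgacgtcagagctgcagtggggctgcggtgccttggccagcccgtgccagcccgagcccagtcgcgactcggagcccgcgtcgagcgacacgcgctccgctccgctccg
Grb10, upstream start (chr11:12037371-12037670, - strand): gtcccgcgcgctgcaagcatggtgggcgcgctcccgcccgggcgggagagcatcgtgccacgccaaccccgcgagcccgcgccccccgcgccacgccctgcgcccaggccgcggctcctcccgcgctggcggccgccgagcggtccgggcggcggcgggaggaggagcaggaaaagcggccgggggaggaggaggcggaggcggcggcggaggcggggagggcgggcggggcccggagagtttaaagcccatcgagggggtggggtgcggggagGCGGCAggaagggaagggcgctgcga
Grb10, downstream start (chr11:12027922-12028221, - strand): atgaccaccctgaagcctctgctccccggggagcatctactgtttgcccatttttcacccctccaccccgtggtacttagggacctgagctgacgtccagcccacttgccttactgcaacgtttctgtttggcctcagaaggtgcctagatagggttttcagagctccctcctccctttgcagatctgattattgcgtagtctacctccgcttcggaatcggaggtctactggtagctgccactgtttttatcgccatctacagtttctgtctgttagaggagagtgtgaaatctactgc
The hexamer stood 3 times in the first Zdbf2 window, 1 time in the upstream Grb10 window and in neither of the windows of Igf2r and Airn. On either strand it was held by 11.6% of all 32851 RefSeq windows. Among the 14 windows of 9 of these genes (all but Impact, so Slc22a3 included) 3 did, the third being that of Plagl1, with 1 match. The windows also differed in CpG content, the dinucleotide that DNA methylation marks: 34 in Igf2r, 3 in Airn, 15 and 38 in the first and second Zdbf2 windows, and 45 and 9 in the upstream and downstream Grb10 windows, against a median of 7 over all windows. Windows of Gab1, whose groups also did not overlap and which was also low in 1 clone, are not shown. They held 0 matches, with 28 and 26 CpG. A match is only a match of letters, and binding and methylation were not measured.

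Zdbf2 and Gab1 read higher and Airn read lower in every clone derived with ascorbic acid than in every clone derived without it, each on its brightest probe set. The other 6 genes overlapped between groups. Airn passed the limit for dim probe sets only through the clones without ascorbic acid. Signals are in the array's linear units, differences are taken on log2(signal + 16), and the standard error (SE) comes from limma, fitted over all probe sets for these genes and over all tested genes for the other genes named. Among the 13125 tested genes 3.63% had groups that did not overlap in either direction, and among these imprinted genes 3 of 9 did. Because the genes were picked with these values known, nothing is read from that count. None of the 9 was called by limma (adjusted p under 0.05 over all tested genes), where 3 genes, 0.0229%, were. Of all genes 765 had an unadjusted p under 0.05, and single p-values of the 9 are not given, since the genes were picked with their differences known. Without the intensity trend or with robust estimation the fit likewise called 0 of them. At the level of probe sets, 0 of 23 were called against 11 of 45037 (0.0244%), and 4 of 23 did not overlap against 3.12% of all. The median log2 difference of the 9 genes was -0.12, with 3 higher and 6 lower, beside -0.0042 over all genes. Fewer cells that make a transcript and less of it per cell cannot be told apart in these bulk samples.

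**Figure D1:**
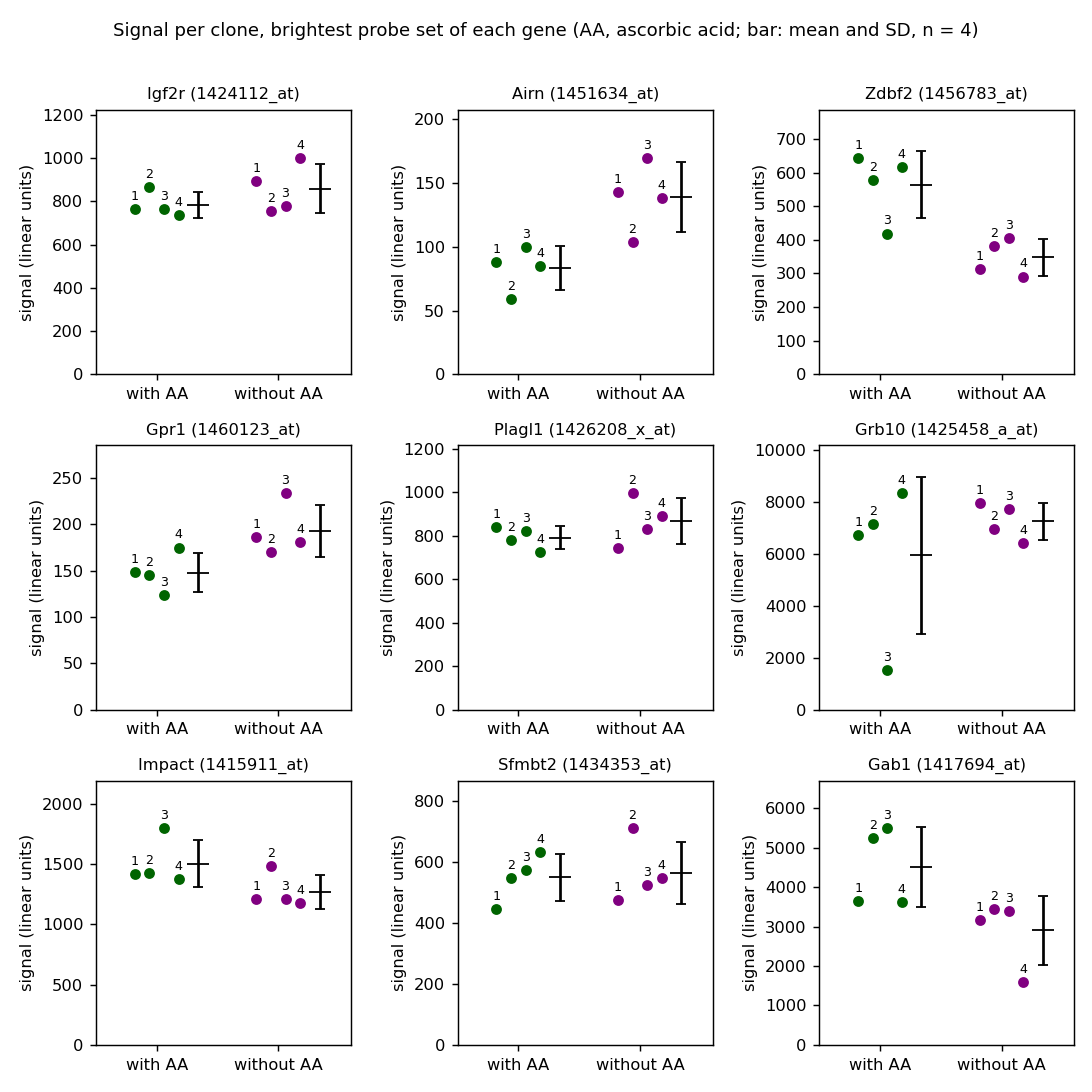
Signal (linear array units, vertical axis from 0) of the brightest probe set of each of 9 imprinted genes in each clone, numbered 1 to 4, with ascorbic acid at left and without at right. Bars give mean and SD (n = 4). The groups do not overlap for Zdbf2, Gab1 and Airn, and Grb10 is low in clone 3 with ascorbic acid.

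Igf2r encodes the receptor that carries Igf2 and enzymes tagged with mannose phosphate to the lysosome. Its brightest probe set read 763, 868, 762 and 736 in clones 1 to 4 with ascorbic acid, against 892, 755, 780 and 1002 in clones 1 to 4 without. The groups overlapped, with clone 4 without ascorbic acid the highest, and the log2 difference was -0.12 ± 0.10 (SE, n = 4 each), or -0.05 without that clone. A second Igf2r probe set averaged 818 ± 58.3 with and 811 ± 65.1 without (n = 4 each, SD), and its log2 difference was 0.01 ± 0.08 (SE). The difference of the second probe set was well below its SE, and that of the brightest was somewhat above its SE.

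Airn, the noncoding antisense partner, lay near the limit for dim probe sets. Its brightest probe set read 88.3, 59.3, 100 and 84.8 in clones 1 to 4 with ascorbic acid, against 143, 104, 170 and 138 in clones 1 to 4 without. All 4 clones with ascorbic acid lay below all 4 without, by 3.36 units between the nearest clones. The log2 difference was -0.64 ± 0.22 (SE), and the mean with ascorbic acid, 83.2 ± 17.2 (SD, n = 4), lay under the signal of 93.7 below which a probe set counted as dim. That limit was set on the mean over all clones. Airn passed it only through the clones without ascorbic acid, the group where it read higher. The other 4 Airn probe sets were all dim, 3 of them lower and 1 higher with ascorbic acid, at log2 differences of -0.53 to 0.12, and each overlapped between groups. A further probe set, annotated to Airn and Igf2r together and therefore outside the choice, averaged 17.2 ± 5.08 in clones with and 39.7 ± 13.4 in clones without ascorbic acid (n = 4 each, SD), again with overlapping groups.

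Markers of several cell types were compared between the groups as well, and fibroblasts are among the cells that transcribe Airn and Igf2r. Of 14 fibroblast and feeder markers tested 13 were lower with ascorbic acid and 0 were called, and their median log2 difference was -0.21. Postn, a matrix protein gene, was the 1 marker of that list whose groups did not overlap, at 317 ± 33.9 in clones with and 416 ± 22.8 in clones without ascorbic acid (n = 4 each, SD). The largest difference of the list ran the other way. Twist1, the 1 marker that was higher, had a log2 difference of 0.52 ± 0.16 (SE). It read 161 to 217 with and 114 to 163 without ascorbic acid, with overlapping groups. Summed over the 17 markers with a probe set, the signal ran from 43021 to 53062 with and from 50732 to 54432 without ascorbic acid, while Lum, Dcn and Twist2, of the same list, lay below the dim limit. The pluripotency markers were lower in 8 of 8, with 0 called, 0 without overlap and a median log2 difference of -0.13, and their summed signal ran from 76930 to 94336 with and from 86433 to 99467 without ascorbic acid. Of 7 neural markers 6 were higher and 0 were called, with a median of 0.20. Sox1, a neural transcription factor gene, was the 1 of them whose groups did not overlap, at 402 to 510 in clones with and 155 to 361 in clones without ascorbic acid. The primitive endoderm markers gave 4 higher and 2 lower, with 0 called. The part of any of these in the Airn difference was not tested.

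Genes around the locus overlapped between groups. Of 7 tested neighbours on the list for this locus (Sod2, Tcp1, Mrpl18, Wtap, Pnldc1, Map3k4 and Agpat4), 7 were lower, 0 were called and 0 had groups that did not overlap. Their median log2 difference was -0.09. Pnldc1, which trims the ends of small germline RNAs, had the largest, -0.32 ± 0.11 (SE), at 586 ± 96.6 in clones with and 727 ± 55.0 in clones without ascorbic acid (n = 4 each, SD). From clone to clone, with each group's mean subtracted, the relation of Igf2r and Airn did not pass the test. Pearson r was -0.17 (two-sided exact permutation p = 0.752, adjusted 0.753) and Spearman rho -0.31 (exact permutation p = 0.514, adjusted 0.630, n = 8), with adjustment over the 4 gene pairs examined. The r was 0.39 without the 2 clones farthest from the median of Igf2r, and it lay between -0.77 and 0.23 when 1 clone at a time was left out.

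Zdbf2 codes for a zinc finger protein whose loss in mice slows growth, and it stands next to Gpr1, which encodes a receptor for the signalling protein chemerin. Zdbf2 read 645, 579, 419 and 616 in clones 1 to 4 with ascorbic acid, against 314, 383, 405 and 291 in clones 1 to 4 without. The groups did not overlap, but clone 3 with ascorbic acid was only 14 units above clone 3 without. The log2 difference was 0.67 ± 0.15 (SE, n = 4 each), 1.59-fold on the scale of signal + 16, and it lay between 0.59 and 0.80 when any 1 clone was left out. Gpr1 differed in the opposite direction, at 149, 145, 124 and 175 in clones 1 to 4 with ascorbic acid, against 186, 170, 234 and 181 in clones 1 to 4 without. Clone 4 with ascorbic acid lay within the range of the other group, and the log2 difference was -0.35 ± 0.16 (SE).

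Zdbf2 and Gpr1 had group differences of opposite sign, and their relation from clone to clone did not pass the test. With group means subtracted, r was 0.66 (exact permutation p = 0.149) and rho 0.71 (exact permutation p = 0.0833, n = 8), or 0.597 and 0.333 after adjustment over the 4 pairs. The r was 0.42 without the 2 clones farthest from the median of Zdbf2. Pooled over both groups, without subtracting their means, it was -0.38. Zdbf2 and Meg3, the maternal noncoding RNA of the Dlk1-Dio3 domain, gave r = 0.14 (exact permutation p = 0.753, adjusted 0.753) and rho = 0.24 (exact permutation p = 0.630, adjusted 0.630, n = 8). The r was 0.26 without the 2 farthest clones and between -0.35 and 0.80 when single clones were left out. Clone 4 without ascorbic acid had the lowest reading of its group for both, 291 for Zdbf2 and 699 for Meg3, whereas clone 3 with ascorbic acid had the lowest Zdbf2 of its group and the highest Meg3, 9036.

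The other genes of the Zdbf2 locus gave small differences. Of 8 tested (Adam23, Eef1b2, Ndufs1, Fastkd2, Klf7, Nrp2, Ino80d and Creb1), 5 were higher and 3 lower, 0 were called, and the median log2 difference was 0.02. Cmklr1, another chemerin receptor, read 349, 326, 261 and 293 in clones 1 to 4 with ascorbic acid, against 251, 194, 182 and 187 in clones 1 to 4 without. All 4 clones with ascorbic acid were above all 4 without, by 10 units between the nearest, and the log2 difference of 0.56 ± 0.14 (SE) ran opposite to that of Gpr1. It was the only member of the list of partners and paralogues whose groups did not overlap. In that list of 19 tested genes 14 were higher, 5 lower and 0 called. The list also held Igf2, the ligand of Igf2r (log2 difference -0.24 ± 0.10, SE), Igf1r (0.01 ± 0.11) and M6pr, the other mannose phosphate receptor (0.0028 ± 0.061), all overlapping between groups.

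**Figure D2:**
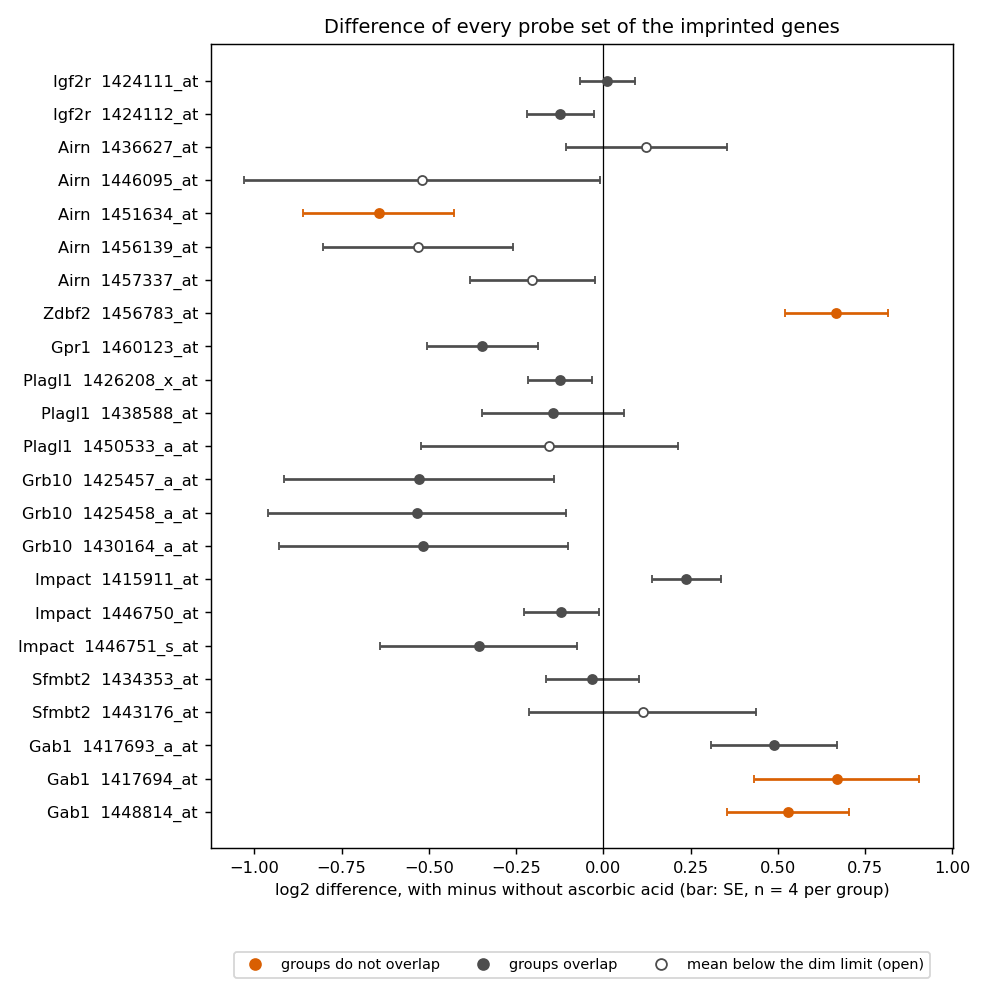
Log2 difference, with minus without ascorbic acid, for each of the 23 probe sets, with SE bars (n = 4 per group). Orange marks the 4 probe sets whose groups do not overlap, and open symbols the 6 whose mean lies below the dim limit. The probe sets of Gab1 and of Grb10 lie close together, while those of Impact, Igf2r, Airn and Sfmbt2 fall on both sides of 0.

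Grb10 encodes an adaptor that binds insulin and insulin-like growth factor receptors and restrains growth. Its brightest probe set read 6710, 7151, 1539 and 8346 in clones 1 to 4 with ascorbic acid, against 7952, 6964, 7717 and 6398 in clones 1 to 4 without. Clone 3 with ascorbic acid was low, and among the other 7 clones the 2 groups overlapped. All 3 Grb10 probe sets showed this: clone 3 with ascorbic acid stood at 21.5%, 25.7% and 21.0% of the median of the other 7 clones. In that clone the second probe set read 290, against 1080 to 1478 in the others, and the third 106, against 398 to 618.

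The difference between groups rested on that clone. With all clones it was -0.53 ± 0.43 log2 (SE) on the brightest probe set, and without clone 3 it was 0.03, at 7402 ± 847 with (SD, n = 3) and 7257 ± 711 without ascorbic acid (SD, n = 4). The fall of Grb10 below the other clones was among the largest on that array. Its log2 difference from the median of the other clones was -2.20, and of the 13125 genes tested 1 other lay lower. In that clone 11 genes lay 2 or more log2 units from the median of the others, where the other 7 clones had 2 to 8 such genes. Among the 7026 genes whose median in the other clones was at least 500, those 2 or more away in clone 3 were Grb10, Meg3 and Rian, the last 2 upward. This comparison was made after the low value had been seen and is a description.

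Genes beside Grb10 did not share its low reading. Ddc, an imprinted neighbour that makes the enzyme for dopamine and serotonin synthesis, had a log2 difference of -0.06 from the median of the other clones in clone 3 with ascorbic acid. For Cobl, on the other side, it was -0.07, and for Fignl1, 2 genes away, 0.0060. Of the 9 tested genes within 9 protein-coding places, the farthest from the others were Zpbp at -1.24 and Ikzf1 at -0.52. Both had low signals, with group means of 94.7 and 104 with and 125 and 199 without ascorbic acid.

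**Figure D3:**
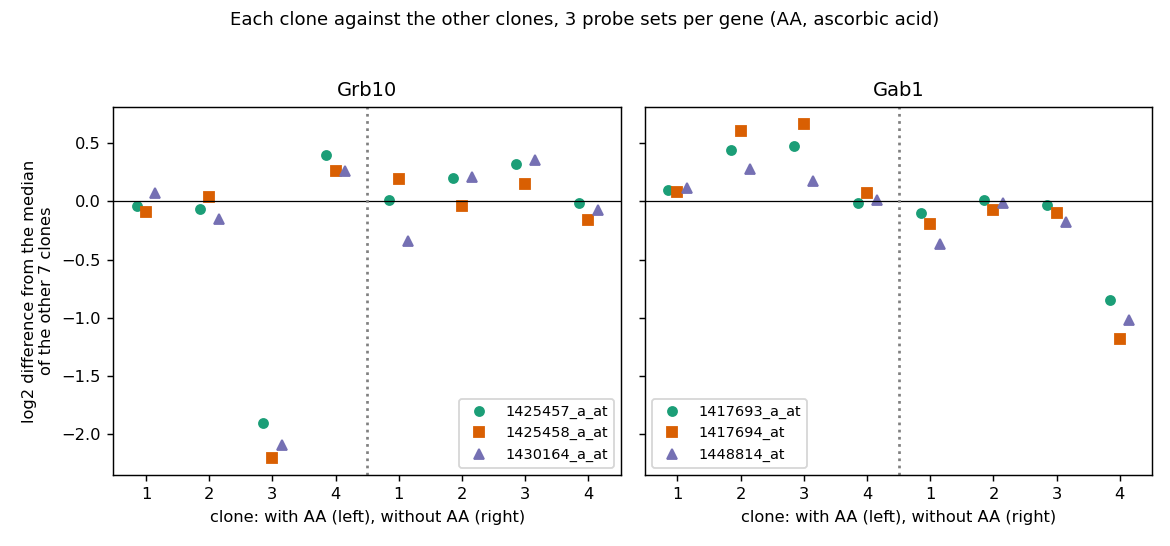
Log2 difference of each clone from the median of the other 7, for 3 probe sets of Grb10 and 3 of Gab1. Clones with ascorbic acid stand left of the dotted line and clones without stand right. The 3 Grb10 probe sets drop together in clone 3 with ascorbic acid, to as low as -2.20, and the 3 Gab1 probe sets in clone 4 without, to as low as -1.18.

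Gab1 encodes a docking protein that links receptor tyrosine kinases to the phosphatase Ptpn11 and to lipid kinase. Its brightest probe set read 3649, 5255, 5494 and 3628 in clones 1 to 4 with ascorbic acid, against 3176, 3455, 3390 and 1591 in clones 1 to 4 without. The groups did not overlap, clones 2 and 3 with ascorbic acid were high, and clone 4 without was low. The log2 difference was 0.67 ± 0.24 (SE), or 1.59-fold, and the other probe sets gave 0.53 ± 0.18, again without overlap, and 0.49 ± 0.18, with overlap.

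Clone 4 without ascorbic acid made up part of that difference. In it the 3 Gab1 probe sets stood at 43.9%, 55.4% and 49.0% of the median of the other clones. Without this clone the log2 difference on the brightest probe set was 0.40, at 4507 ± 1007 with (SD, n = 4) and 3340 ± 146 without ascorbic acid (SD, n = 3), and the groups were still separate on 2 of the 3 probe sets. Of the 7037 genes with a median of at least 500 in the other clones, 7 lay 1 or more log2 units away in this clone: Gab1, Meg3, Rian, Mirg, Tcf15, Mapk1ip1 and Uroc1. The other clones had 2 to 10 such genes each. Of all 13125 tested genes, 47, Gab1 included, lay at or below its log2 difference of -1.18 in this clone. The 10 tested neighbours of Gab1 lay between -0.27 and 0.20 in the same clone, with Smarca5 on one side at -0.02 and Usp38 on the other at -0.0023.

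**Figure D4:**
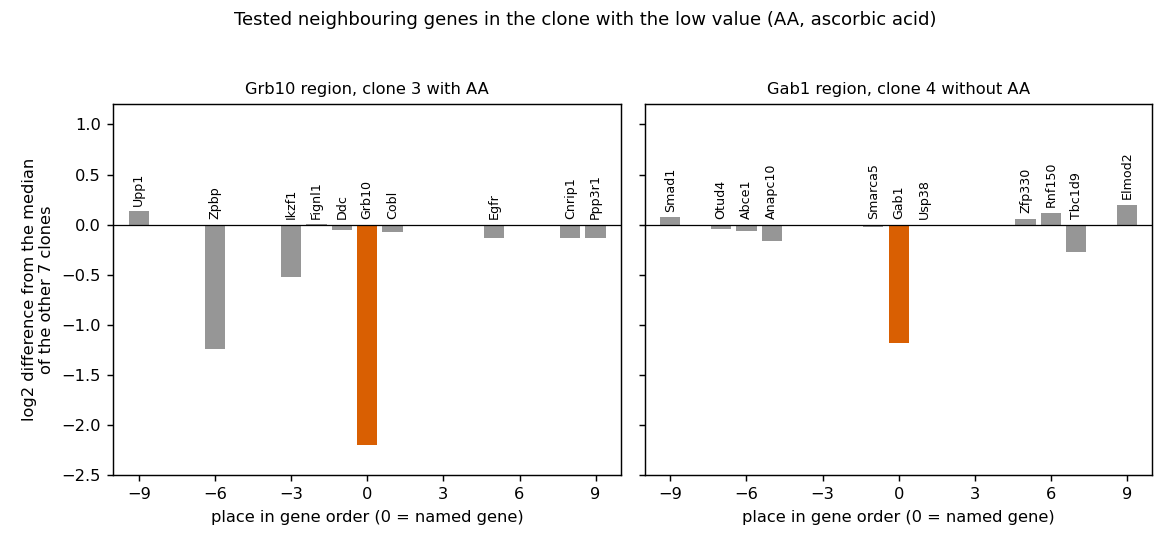
Log2 difference of a single clone from the median of the other 7 for tested genes around Grb10 (clone 3 with ascorbic acid, left) and around Gab1 (clone 4 without, right), in gene order along the chromosome with the named gene at place 0. Grb10 is at -2.20 and Gab1 at -1.18, while their adjacent tested genes lie near 0 and Zpbp, of low signal, at -1.24.

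Sfmbt2, a Polycomb group protein, belongs to the same imprint class as Gab1 and overlapped between groups. It read 448, 547, 575 and 634 in clones 1 to 4 with ascorbic acid, against 475, 712, 526 and 549 in clones 1 to 4 without. The log2 difference was -0.03 ± 0.13 (SE), and its sign turned under median centring (0.0017), when clone 1 with ascorbic acid was left out (0.06) and when clone 2 without ascorbic acid was left out (0.08). Its second probe set was dim, at 46.7 ± 20.1 with and 42.5 ± 19.9 without (n = 4 each, SD). Of 6 tested genes on the list for this imprint class, Sfmbt2 and Gab1 included, 4 were higher and 2 lower with 0 called, and Gab1 was the 1 whose groups did not overlap. Slc38a4, an amino acid transporter on that list, averaged 2129 ± 423 in clones with and 2411 ± 253 in clones without ascorbic acid (n = 4 each, SD). The trophoblast markers gave a summed signal of 5419 to 7270 with and 5584 to 7851 without, over all 11 markers, of which Cdx2, Elf5, Gata3 and Tpbpa lay below the dim limit.

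Plagl1 encodes a zinc finger transcription factor that restrains cell division. Its brightest probe set, of a class that can also read related transcripts, gave 839, 782, 821 and 723 in clones 1 to 4 with ascorbic acid, against 745, 997, 833 and 892 in clones 1 to 4 without. The groups overlapped and the log2 difference was -0.12 ± 0.09 (SE), or -0.05 without the highest clone, clone 2 without ascorbic acid. The other 2 probe sets were also below 0, at -0.14 ± 0.20 and -0.15 ± 0.37, less than their errors. The first of these averaged 103 with and 116 without ascorbic acid, near the dim limit. The last was dim, at 31.2 with and 31.4 without. Plagl1 and Grb10 did not pass the test across clones with group means subtracted, at r = -0.31 (exact permutation p = 0.344, adjusted 0.688) and rho = -0.45 (exact permutation p = 0.205, adjusted 0.410, n = 8). The r was -0.49 without the 2 clones farthest from the median of Plagl1. It was -0.76 without clone 3 with ascorbic acid, the low Grb10 clone, and -0.16 without clone 4 with ascorbic acid, the ends of the range when single clones were left out.

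Impact, which binds Gcn1 and so dampens the kinase that senses amino acid shortage, differed between its probe sets. The brightest read 1415, 1425, 1799 and 1379 in clones 1 to 4 with ascorbic acid, against 1213, 1482, 1211 and 1179 in clones 1 to 4 without. Only clone 2 without ascorbic acid reached into the range of the other group, and the log2 difference was 0.24 ± 0.10 (SE). Without clone 3 with ascorbic acid, its highest clone, the difference was 0.15. The other 2 probe sets were lower with ascorbic acid, at -0.12 ± 0.11 and -0.36 ± 0.28, so that the mean over the probe sets was -0.08. The binding partner Gcn1 (0.09 ± 0.14) and the kinase gene Eif2ak4 (-0.05 ± 0.12) overlapped between groups.

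Other imprinted genes gave a mixed picture. Of 35 other imprinted genes tested, 17 were higher and 18 lower with ascorbic acid, with a median log2 difference of -0.0058. The 2 called, Meg3 and Rian, are noncoding RNAs of Dlk1-Dio3, and 5 genes were higher and 1 lower without overlap, among them Meg3 (2.42 ± 0.25) and Rian (2.68 ± 0.22). The rest were Mirg, of the same domain (0.87 ± 0.18), Nnat (1.10 ± 0.40), Mcts2 (0.79 ± 0.12) and the lower H13 (-0.66 ± 0.13). Over all 13125 tested genes 0.0229% were called and 3.63% had groups that did not overlap. The factors that maintain imprints gave 3 higher and 5 lower of 8, with 0 called and 0 without overlap. Among them Zfp57 averaged 592 ± 104 in clones with and 721 ± 89.1 in clones without ascorbic acid (n = 4 each, SD), with clone 3 with ascorbic acid and clone 2 without inside the range of the other group. The Polycomb genes Eed, Ezh2, Suz12 and Jarid2 gave 2 higher and 2 lower, with 0 called.

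Over the 8 clones the genes most like Igf2r were Xab2 (Pearson r = 0.968), Gse1 (0.966), Syt7 (0.960), Pole (0.957) and Timeless (0.956), each highest in clone 4 without ascorbic acid. Those most like Zdbf2 were Naa20 (r = 0.957), Ube2j1 (0.956), Ube2a (0.951), Mib1 (0.950) and Kremen1 (0.948). These are descriptions over 8 arrays that also share the difference between groups, and they were taken as the 5 highest among all tested genes.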

How the data were processed

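Clones were grouped by their titles, and all 8 columns of the deposited table were matched to samples by name. Per the file, the authors deposited 1 signal intensity per probe set of an Affymetrix mouse genome array on a linear scale, and per the submitters' processing notes these came from GCOS (its version: not given in the sources used here). Of 45101 probe sets, 64 controls were left out. Names come from the platform annotation, in which 34945 probe sets have 1 symbol, 932 several and 9160 none.

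Signals were used as log2(signal + 16) with the deposited scaling. A gene's brightest probe set stood for it, and the 40% dimmest probe sets (signal under about 93.7) were left out of the gene comparison but shown for these genes. Differences are with minus without ascorbic acid, from limma 3.58.1 (lmFit, eBayes with trend) in R 4.3.3, with Benjamini-Hochberg adjustment over all genes or probe sets. Relations between genes used exact permutation of clones within groups (576 orders). Of 6 planned gene pairs 2 needed Slc22a3 and could not be examined. The scripts were tested on simulated data. The genes, lists and tests were chosen with earlier results of these data known. Every probe set of these genes was to be named, and from other lists the 2 largest differences without overlap or, for partners, any member. Named after their values were seen were Pnldc1, Twist1, Slc38a4, Zfp57, Ddc, Mirg, Nnat, Mcts2 and H13. The same holds for the neighbours and outlying genes of single clones. The number of arrays limits the precision. Alternatives were other scalings, pseudocounts, filters, probe set choices and variance settings, a replicate block and leaving out each clone.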

Additional observations from a re-analysis of the deposited data

Results flagged for a closer look

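Among 46 groups of 4 clones (23 probe sets in each of 2 groups), 6 held a clone whose gap to its nearest neighbour on the log2 scale was a larger share of the group's range than Dixon's 95% critical value for 4 samples, where chance gives about 5%. Probe sets of 1 gene are not independent of each other. The share over all probe sets of the arrays was not counted, so nothing about these genes is read from the 6. On the linear scale 4 of the 6 groups passed, without the Grb10 ones. Grb10 in clone 3 with ascorbic acid was low on 2 probe sets, at 1539 (others 6710 to 8346) and 106 (others 456 to 578), and on the third, at 290, its share of the range was 0.805. Gab1 in clone 4 without ascorbic acid was low on 2 probe sets, at 1627 (others 2742 to 2934) and 1591 (others 3176 to 3455). Impact was high in clone 3 with ascorbic acid, at 1799 (others 1379 to 1425), and in clone 2 without, at 1482 (others 1179 to 1213).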

How the results depend on the processing

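Under 19 alternatives 0 of the 9 genes was called, and under 13 alternatives 0 of the 23 probe sets. Over all genes limma called 3, against 1 without the intensity trend and 1 with robust estimation, and 2 to 4 when 1 clone was left out. With clone number as a replicate block it called 3 genes and 9 probe sets, against 3 and 11 without. Clones with the same number did not vary together (correlations of -0.17 to 0.01), and the number is not known to pair them. Under other scalings and pseudocounts the log2 difference of Zdbf2 was 0.60 to 0.70, that of Gab1 0.65 to 0.70 and that of Airn -0.74 to -0.46. When 1 clone was left out, Gab1 gave 0.40 to 0.77, Airn -0.76 to -0.52 and Grb10 -0.78 to 0.03. Impact turned to -0.08 with the mean of its probe sets. Airn and Gpr1 had no value under the 60% dim filter, being too dim. In alternatives chosen after seeing the data, Grb10 in clone 3 with ascorbic acid lay 2.02 to 2.22 log2 below the other clones, the smallest with the mean of its probe sets, and Gab1 in clone 4 without 1.01 to 1.19. None of the 4 gene pairs passed under any alternative.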
